A study of Oryza sativa with 6 samples.

Results

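A set of full-size ABCG transporters of rice, known in plants as pleiotropic drug resistance (PDR) proteins, was followed in roots exposed to ferulic acid (FA). The 10 loci examined were Os01g0342700, Os01g0609200, Os01g0609300, Os01g0609900, Os02g0208300, Os02g0528900, Os06g0554800, Os07g0522500, Os08g0384500 and Os09g0333500. They were taken by locus name from a set of rice full-size ABCG genes, by a rule that uses no measured value. The set was nevertheless chosen with earlier results of these data known. They carried 15 probes on an Agilent rice oligonucleotide array that covered 29689 loci. Of the 10, 8 are described as PDR transporters in the study's transporter annotation, Os01g0609200 is described only by its ABC transporter domain, and Os01g0342700 is not in that annotation. The array measures RNA, so it does not test whether a locus encodes a full-size protein.

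Root RNA came from 6-day-old seedlings of rice cv. TN-67. FA, a phenolic acid released by decomposing rice residues, was given at 50 ppm, and the control plants received water in parallel. RNA from 1 h and 3 h was pooled for the short exposure and RNA from 24 h made up the long exposure, with 3 biological replicates each, and each array paired FA RNA in Cy5 with control RNA in Cy3. The dyes were never swapped, so a probe's dye bias and its response to FA cannot be told apart in a single ratio, whereas a constant dye bias cancels in the difference between exposures. The microarray methods state that RNA was isolated from root tips, whereas the RNA purification methods name root tissues. In such bulk RNA, a change in the number of cells of a type and a change in RNA per cell cannot be told apart.

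ABCG proteins are ATP-driven pumps. A full-size ABCG protein carries a pair of nucleotide-binding domains and a pair of membrane domains in a single chain, and the known plant examples sit mostly in the plasma membrane, where different members move waxes and cutin precursors, terpenoids, phenolic compounds, hormones or heavy metals. In roots they are known for export of secondary metabolites and for tolerance of toxic compounds. Os01g0609300 is known in rice as OsPDR9 or OsABCG36, whose RNA is induced in roots by heavy metals and redox stress. Os07g0522500 is known as OsPDR5 or OsABCG43, a gene induced by cadmium. No substrate is given here for the other loci. The PDR numbers in the study's annotation, used below, differ from these names. There Os01g0609300 is described as PDR3, Os07g0522500 as PDR6, and another locus, Os02g0528900, as PDR9.

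The 3 short-exposure arrays correlated with each other at r = 0.80 to 0.85 across probes and the 3 long-exposure arrays at 0.57 to 0.66. All 3 root marker genes were well above background in the control channel on all 6 arrays. Of 4 green tissue marker genes, 0 were so on all 6, but each was so on at least 1 array. The root markers were not constant under FA, with a median log2 (FA/control) of -0.70 after short and 0.46 after long exposure. At an adjusted p under 0.1 by limma, 2 were lower and 1 higher after short exposure, and all 3 were higher after long exposure. For short minus long, 2 of the 3 were lower by at least 2-fold. Arrays 1 and 2 of the short exposure were on one slide, array 3 on another, and all 3 long-exposure arrays on one further slide. Each slide thus held a single exposure. No probe was saturated. A locus was represented by its brightest probe. It was tested where the processed signal reached 100 in either channel on at least 1 array, and called where limma gave an adjusted p under 0.1 with a mean change of at least 2-fold. Values below are log2 (FA/control) unless a signal is named, and errors are SD with n = 3 arrays.

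After short exposure 5 of the 8 tested ABCG loci were upregulated at least 2-fold and 0 were downregulated. Of all tested loci, 7.05% were called higher and 2.57% lower. Higher calls made up 73.3% of all calls, and 90% when the raw signals were instead corrected by normexp and loess. The 8 tested loci had a median of 1.75, against a median of -0.09 over all 19101 tested loci. Os08g0384500 passed the signal limit through its FA channel alone, so its inclusion depended on its response, and without it 4 of 7 tested loci were called, with a median of 1.48. The other 2 loci, Os01g0342700 and Os09g0333500, stayed under the limit on every array.

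**Figure D1:**
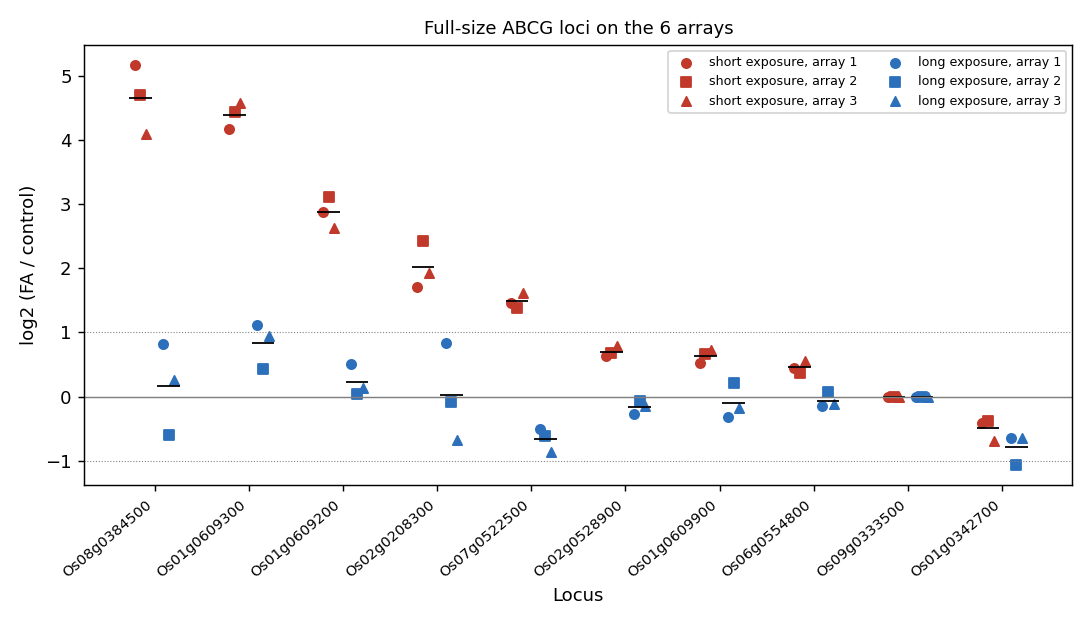
Log2 (FA/control) of the brightest probe of each of the 10 loci. Each symbol is 1 array, red for short and blue for long exposure, black lines are means of 3 arrays, and dotted lines mark 2-fold. All short-exposure symbols of the first 8 loci lie above their long-exposure symbols.

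Os01g0609300 showed the largest response among the loci with a measurable control. In the control channel its processed signal was 363, 275 and 277 on short-exposure arrays 1, 2 and 3, and in the FA channel it was 6509, 5972 and 6578. The ratios were 4.16, 4.44 and 4.57, a mean of 4.39 ± 0.21 or 21.0-fold (adjusted p = 8.95e-06). Every FA signal lay far above every control signal. Across all tested loci this mean ranked at position 43 of 19101. The locus has 3 probes, and the other two gave means of 4.97 ± 0.54 and 4.87 ± 0.31, so all 3 probes were called.

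The response of Os01g0609300 was smaller after 24 h. Its ratios were 1.12, 0.44 and 0.95, with a mean of 0.83 ± 0.35 (1.78-fold, adjusted p = 0.0047), which passed the p limit but not the 2-fold limit. The other probes gave 0.84 ± 0.28 and 0.81 ± 0.41. Array 2 was the lowest of the 3, and without it the mean was 1.03 and the locus was called. The p limit was passed under 10 of 11 alternatives but not by the methods' t-test (adjusted p = 0.14). The short minus long difference was 3.56 (SE 0.19, adjusted p = 5.12e-05), with no overlap between exposures.

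Os08g0384500, described as PDR-like, was near background in water-treated roots. Its control signal was 8, 8 and 9 on the short-exposure arrays and was well above background on 0 of 3. Its FA signal was 296, 218 and 150 and was well above background on all 3. The ratios of 5.17, 4.69 and 4.09 (mean 4.65 ± 0.54, adjusted p = 3.54e-05) therefore rest on a control that was not measured. Set against the lowest signals well above background on those arrays, on the scale after loess and quantile normalization, the FA samples were 16.4-fold higher. This is no lower limit, because brighter signals could also fail to be well above background. The control of Os04g0194500, another ABC locus, was 35, 46 and 23 on those arrays and well above background on 0 of 3. With normexp and loess the mean of Os08g0384500 was 2.03, still called.

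After 24 h the signals of Os08g0384500 were 14, 80 and 22 in the control and 24, 53 and 26 with FA, under the limit for testing. The ratios scattered on both sides of 0, at 0.82, -0.60 and 0.26. The control was well above background on 1 of 3 arrays and the FA channel on 2 of 3. The difference between exposures was 4.49 (SE 0.39, adjusted p = 0.00028) and carries the same unmeasured control. With normexp and loess it was 2.15.

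Os01g0609200, the locus described only by its ABC domain, has a locus number close to that of Os01g0609300 on chromosome 1. Its signals rose from 458, 390 and 283 in the control to 3365, 3390 and 1739 with FA after short exposure. The ratios were 2.88, 3.12 and 2.62 (mean 2.87 ± 0.25, 7.32-fold, adjusted p = 2.70e-05). FA signals were above the control on all 3 arrays, and array 3 was the dimmest in both channels.

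After long exposure the ratios of Os01g0609200 were 0.52, 0.04 and 0.13 (mean 0.23 ± 0.25, adjusted p = 0.11). All 3 were positive, and the mean missed the p limit, which it passed under 4 of 11 alternatives, with normexp and loess (adjusted p = 0.027), with centred arrays (0.091), with the signal limit required on every array (0.092) and without array 2 (0.082). The difference between exposures was 2.65 (SE 0.17, adjusted p = 9.35e-05).

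Os02g0208300, described as PDR5-like, was a dimmer probe. Its control signal was 101, 43 and 54 after short exposure, well above background on 2 of 3 arrays, and its FA signal was 332, 228 and 205. The ratios were 1.71, 2.42 and 1.93 (mean 2.02 ± 0.36, 4.06-fold, adjusted p = 0.00017). With normexp and loess the mean was 1.38, still called. All FA signals exceeded all control signals.

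The long-exposure ratios of Os02g0208300 were 0.84, -0.09 and -0.68 (mean 0.02 ± 0.76, adjusted p = 0.95). This was the widest spread among the 7 loci tested after long exposure. The exposures differed by 2.00 (SE 0.37, adjusted p = 0.0059) without overlap, and by 1.39 with normexp and loess.

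Os07g0522500, described as PDR6, was upregulated early and lay below the control late. After short exposure its signals were 193, 186 and 115 in the control and 534, 483 and 353 with FA. The ratios were 1.46, 1.37 and 1.61 (mean 1.48 ± 0.12, 2.80-fold, adjusted p = 7.84e-05). The FA signal was above the control on all 3 arrays.

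After long exposure the signals of Os07g0522500 were 236, 274 and 297 in the control and 166, 180 and 163 with FA. Here the order was turned, with every control above every FA sample. The ratios were -0.51, -0.61 and -0.86 (mean -0.66 ± 0.18, adjusted p = 0.0027), 1.58-fold lower and so under the 2-fold limit. The difference between exposures was 2.15 (SE 0.12, adjusted p = 5.41e-05).

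The remaining 3 tested loci passed the p limit after short exposure with changes of less than 2-fold, all upward. Os02g0528900, described as PDR9, had ratios of 0.63, 0.69 and 0.78 (mean 0.70 ± 0.08, adjusted p = 0.00080). Os01g0609900, described as PDR4, had 0.52, 0.67 and 0.73 (mean 0.64 ± 0.11, adjusted p = 0.0013), and its second probe gave 0.73 ± 0.16. Os06g0554800, described as PDR1, had 0.44, 0.37 and 0.56 (mean 0.46 ± 0.10, adjusted p = 0.0042), and its second probe gave 0.75 ± 0.16. All 3 loci had bright controls, with signals of 649 to 1095, 1167 to 2326 and 1711 to 2097, respectively. Without a fold limit, all 8 tested ABCG loci were higher at an adjusted p under 0.1. Os08g0384500 passed the signal limit through its FA channel alone, so it is not set against the share over all loci. The other 7 were all higher, where 28.3% of all tested loci were higher and 39.7% lower.

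After long exposure these 3 loci lay close to the control. Os02g0528900 had ratios of -0.26, -0.07 and -0.15 (mean -0.16 ± 0.10, adjusted p = 0.090), all below 0. Os01g0609900 had -0.32, 0.21 and -0.17 (mean -0.09 ± 0.27, adjusted p = 0.51), and Os06g0554800 had -0.14, 0.07 and -0.11 (mean -0.06 ± 0.11, adjusted p = 0.50). The second probe of Os06g0554800 lay on the other side of 0, at 0.25 ± 0.19 (adjusted p = 0.054), so the probes of this locus differed in direction and in passing the p limit.

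At the level of the 10 loci, 0 of 7 tested after long exposure were called by limma, where 1.89% of all tested loci were called higher and 0.611% lower. At an unadjusted p under 0.05 by limma, 3 of 7 passed, but the share of all tested loci at that limit was not counted. The methods' t-test called 0 of 7. With the adjusted p limit alone, Os01g0609300 was higher and Os07g0522500 and Os02g0528900 were lower, while 27.4% of all tested loci were higher and 30.3% lower. Os02g0528900 lost that limit under 7 of 11 alternatives (adjusted p from 0.074 to 0.37 over the 11), and the methods' t-test passed neither Os01g0609300 (0.14) nor Os07g0522500 (0.10). The median of the 7 loci was -0.06, against -0.03 over all tested loci.

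Os09g0333500, described as PDR-like, gave signals of 4 to 9 in both channels and a deposited ratio of exactly 0 on all 6 arrays, the value the scanner software writes when neither channel is significant. Os01g0342700 gave control signals of 12 to 29 with its brightest probe, well above background on 1 of 6 control samples and 0 of 6 FA samples. Nothing can be said of the response of either locus.

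Tested directly, the short-exposure ratio exceeded the long-exposure ratio by at least 2-fold for 5 of 8 ABCG loci, against 5.74% of all tested loci, with 2.89% called lower. With normexp and loess, higher loci made up 78.6% of these calls over all loci, against 66.5%. The 5 were Os08g0384500, Os01g0609300, Os01g0609200, Os07g0522500 and Os02g0208300, the loci also called after short exposure. Os08g0384500 reached the signal limit only in the short-exposure FA channel, and without it the count was 4 of 7. The other 3 differed by less than 2-fold, namely Os02g0528900 by 0.86 (adjusted p = 0.00060), Os01g0609900 by 0.73 (adjusted p = 0.0081) and Os06g0554800 by 0.52 (adjusted p = 0.0066). For the other 7 loci the 3 short-exposure ratios lay above the 3 long-exposure ratios, as they did for 22% of all loci, while 30.9% lay wholly below. The ratios of Os08g0384500 did not overlap either, but it entered through the group in which it was high and is not set against that share.

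The ratio compares FA with the control of the same time, and both channels can move between exposures. Signals of the same probe were compared across arrays after loess and quantile normalization, as a description, since slide and exposure cannot be told apart in a single channel. Of the 6 ABCG loci well above background in both channels on every array, 5 had FA signals that were higher after short than after long exposure without overlap. The share over all such loci was 21.9%, and 25.2% were lower without overlap. In the control channel 3 of the 6 were lower after short than after long exposure without overlap, where 16.2% of all such loci were, and 1 was higher, where 11.6% were.

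**Figure D2:**
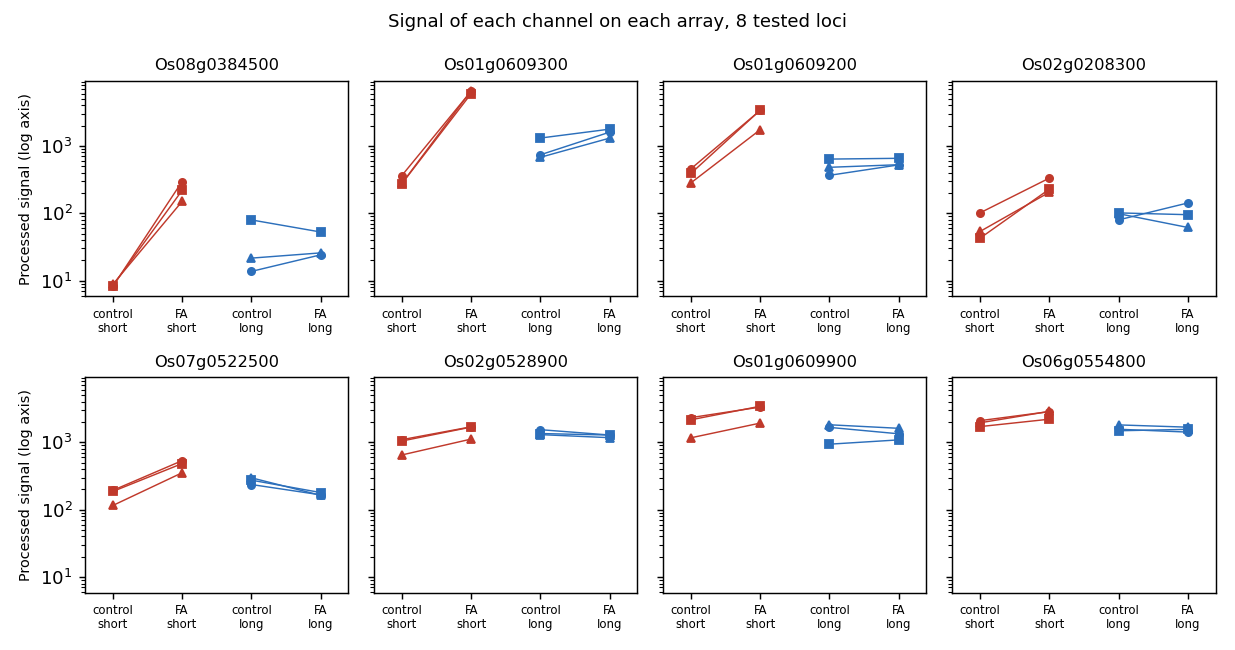
Processed signal (log axis) in the control and FA channels for the 8 tested loci. Each line joins the channels of 1 array, red for short and blue for long exposure. For Os01g0609300 the long-exposure controls (678 to 1309) start above the short-exposure controls (275 to 363), and for Os07g0522500 the blue lines slope down from control to FA.

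For Os01g0609300 the normalized log2 control signal was 8.27 ± 0.21 in the short-exposure and 9.68 ± 0.56 in the long-exposure arrays, a difference of -1.41. Its log2 FA signal was 12.75 ± 0.02 and 10.55 ± 0.27, a difference of 2.20. Both channels thus moved, in opposite directions, between exposures. For Os07g0522500 the control differed by -0.64 and the FA channel by 1.57. For Os01g0609200 the controls overlapped and the FA signal differed by 2.45. For Os06g0554800 both channels were higher in the short-exposure arrays, the control by 0.35 and the FA channel by 0.92, whereas for Os02g0528900 the control differed by -0.50 without overlap and the FA signals overlapped.

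On chromosome 1, 4 ABC transporter loci have close locus numbers, and those that were tested gave unequal values after short exposure. Os01g0609200 and Os01g0609300 were called higher, and Os01g0609900 was 1.56-fold higher, under the limit. Os01g0609000, described as PDR1 and outside the 10 loci, was at background with a ratio of exactly 0 on all 6 arrays. It was not tested, so nothing can be said of its response. Transcripts of related genes may share sequence, and how far each probe distinguishes its locus from these relatives was not tested.

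The study's annotation describes 9 further loci as PDR transporters. Of these, 3 were tested and 2 were called higher after short exposure. Os11g0587600, described as PDR11, had ratios of 3.11, 3.12 and 2.87 (mean 3.03 ± 0.14, adjusted p = 1.40e-05) and a mean of 0.66 ± 0.21 after 24 h (short minus long 2.38, adjusted p = 5.37e-05). Os09g0332700 had 2.27, 2.79 and 2.57 (mean 2.54 ± 0.26, adjusted p = 4.11e-05) and 0.23 ± 0.17 after 24 h (short minus long 2.31, adjusted p = 0.00011). Os01g0516900 was alike in both exposures, at 0.60 ± 0.31 and 0.59 ± 0.09, with a difference of 0.0078 (SE 0.16, adjusted p = 0.97). The other 6 were not tested.

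**Figure D3:**
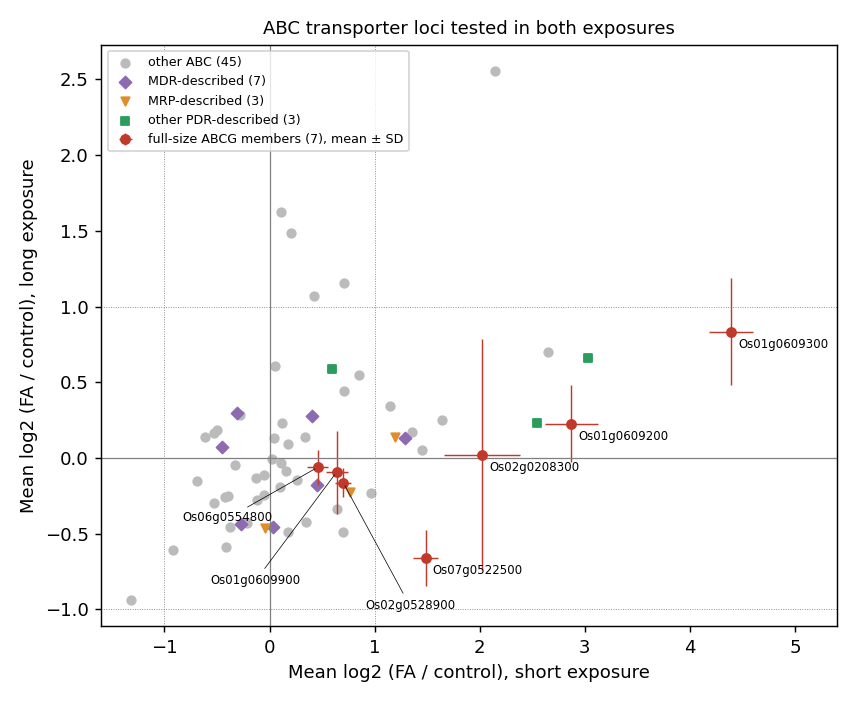
Mean log2 (FA/control) of each ABC transporter locus tested in both exposures, short on the horizontal and long on the vertical axis. Red points are the 7 ABCG loci tested in both, with SD over 3 arrays, and other colours are 3 PDR-described, 7 MDR-described, 3 MRP-described and 45 other ABC loci. Os01g0609300 lies farthest right, and Os07g0522500 is to the right of the 2-fold line and below 0.

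The same counts were made for other ABC transporter groups. After short exposure 2 of 8 loci described as multidrug resistance (MDR) or P-glycoprotein proteins were called higher, with a median of 0.22 over the 8, and 2 of 5 loci described as multidrug resistance-associated proteins (MRP), which carry glutathione conjugates in plants, with a median of 0.76. Among the other ABC loci, 7 of 47 were called higher and 1 lower, with a median of 0.11. These short-exposure counts include loci that passed the signal limit through the FA channel alone, so their inclusion depended on their response. Among them were Os01g0695800 of the MDR-described loci, and Os01g0121600, Os01g0836600 and Os04g0194500 of the other ABC loci. After long exposure 0 of 8 MDR-described, 0 of 4 MRP-described and 5 of 46 other ABC loci were called higher. The full-size ABCG loci were not tested as a group against these.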

How the data were processed

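The authors extracted signals with Agilent's Feature Extraction (version 10.7.1.1 per the file headers, where the methods name an earlier one). The deposited processed signal intensity of each channel is background-corrected and dye-normalized, and from it the authors' software made the deposited log10 ratio (red over green). A deposited table of log2 ratios lay within 1e-04 of the log2 ratio of the processed signals for all 41882 probes with 1 spot on each array. The authors' deposited raw median intensity of spot and local background is uncorrected. Columns of fold changes in the supplementary tables were not used.

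Ratios were converted to log2 (FA/control), control and outlier-flagged spots were left out, and spots of a probe were averaged. Moderated tests (limma 3.58.1, R 4.3.3, functions lmFit and eBayes) compared each exposure with 0 and the 2 exposures with each other, with Benjamini-Hochberg adjustment over all tested probes (27774, 27068 and 28358). Values on at least 2 arrays were required. Where just 1 channel of a probe was well above background on 0 arrays of a group, its ratio was not taken as a measured size. The other channel was then set against the lowest well-above-background signals, or against the probe's own signal where that was higher. The procedure was tested on simulated data. Figures were drawn with matplotlib 3.10.9.

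All members and all their probes were named, with values for other loci described as PDR. The members and lists were chosen with earlier results of these data known. The RefSeq gene table used here matched 0 of the 10 locus names, so no coordinates or sequences are given, and chromosomes were read from the locus names. Alternatives were normexp (offset 50) with loess, centring on the array median, the value table, other signal filters, each replicate left out, the methods' t-test, one fit of 6 arrays, slide and replicate blocks, and the median of a locus's probes. The precision is limited by the number of arrays, 3 per exposure.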

Additional observations from a re-analysis of the deposited data

Results flagged for a closer look

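By limma's direct test of the ratios, the response differed between exposures for all 8 tested full-size ABCG loci at an adjusted p under 0.1. The share of all tested loci passing this p limit alone was not counted, so 8 of 8 does not set these loci apart. With the 2-fold limit added, 5 of the 8 were called higher, where 5.74% of all tested loci were higher and 2.89% lower. One of the 8, Os08g0384500, passed the signal limit only through its short-exposure FA signal. Its short-exposure control was well above background on 0 of 3 arrays, so its difference is no measured size (4.49, or 2.15 with normexp and loess). The short minus long differences in log2 ratio of the other 7 were 3.56 for Os01g0609300, 2.65 for Os01g0609200, 2.15 for Os07g0522500, 2.00 for Os02g0208300, 0.86 for Os02g0528900, 0.73 for Os01g0609900 and 0.52 for Os06g0554800. For Os07g0522500 and Os02g0528900 the 3 short-exposure ratios were all above 0 and the 3 long-exposure ratios all below 0. Each slide held a single exposure, so slide and exposure cannot be told apart in these differences.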

How the results depend on the processing

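Under the alternatives 296 values of single loci kept their direction and their call (adjusted p and 2-fold together), 4 changed sign and 1 gained a call. Read alone, the adjusted p limit was crossed by 0 of 86 values after short exposure, 0 of 116 for short minus long and 15 of 76 after long exposure, where 9 lost it (7 of them for Os02g0528900) and 6 gained it (4 of them for Os01g0609200). The other gains were Os01g0609900 without long array 2 and Os02g0208300 without long array 1. With probes well above background on every array, 3 loci were called after short exposure and 3 for short minus long, and with the limit of 100 required on every array 3 were called for short minus long, because Os08g0384500 and Os02g0208300 were then not tested. Leaving out each array in turn gave 5 calls each time after short exposure and for short minus long, and 0 to 1 after long exposure, where Os01g0609300 was called without array 2 at 1.03. Small long-exposure means changed sign. Os02g0208300 was at -0.0088 with normexp and loess and between -0.38 (without long array 1) and 0.37 (without long array 3), Os01g0609900 was between -0.25 (without long array 2) and 0.019 (without long array 1), and Os06g0554800 was at 0.096 by the median of its probes. The cause was not tested.

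Same-numbered short and long arrays had deviations that correlated at -0.08, -0.01 and 0.14, so the numbers were not taken to pair the arrays. The replicate block gave 5 calls for short minus long, as did slide as a random block (estimated correlation -0.099), which does not separate slide from exposure. Slide could not be fitted as a random block within the short exposure. Over all loci, normexp and loess changed the lower calls from 2.57% to 0.649% after short exposure, from 0.611% to 0.327% after long exposure and from 2.89% to 1.22% for short minus long, and the higher calls after long exposure from 1.89% to 1.13%. The methods' t-test called 0.911% higher and 0.365% lower after long exposure.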
